A study of Mus musculus with 14 samples.

Results

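The genes described are 38 genes of the blood vessel lining, the endothelium, measured in whole left ventricles of mice. They were chosen by name: the list held 46 names for 45 genes, since EDG1 and S1PR1 are 1 gene, and all 45 had a row in the table of 18138 gene rows. A gene counted as a member when its detection p-value, the chance that background alone gives such a signal, was under 0.05 on at least 3 arrays. Of the 45 rows, 38 passed and 7 did not, namely APLN, CALCRL, CAV2, ERG, FABP4, KDR and S1PR1, each detected on 0 of 14 arrays. Names are written in capitals for these genes, as in the deposited table. The members were divided into 32 identity genes, which endothelial cells express at rest, and 6 activation genes, which inflammation, injury or growth raises in them: ICAM1, VCAM1, SELE, SELP, EDN1 and PLVAP.

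Endothelial cells line every vessel and, in the heart, the capillaries that run beside the muscle cells. At rest they hold a barrier through junction proteins, pass fatty acids and water to the muscle, set vessel tone through nitric oxide and endothelin, and keep blood from clotting. When activated, they place selectins and immunoglobulin-family adhesion molecules on their surface, which catch and hold passing leukocytes.

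The samples were left ventricles of male mice of the closely related substrains C57Bl/6N and C57Bl/6J, and the labels name no engineered allele. In each substrain, 4 samples came from mice infused for 48 h with angiotensin II, a peptide hormone that constricts vessels and loads the heart, and 3 from sham-operated controls. The hormone came from an osmotic mini-pump placed under the skin, at 500 ng/kg per minute by the series title and 500 ng/kg per hour by its design text. Nothing in the labels says that each sample was a different mouse, so the spread behind the p-values is that between samples and may be technical. The labels give no age, batch, chip or date. Because whole ventricle was profiled, fewer endothelial cells and less RNA per cell cannot be told apart.

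The 14 arrays, each hybridised with 1 sample, detected 46.4% to 49.3% of rows, and normalised values of arrays of the same group correlated at 0.976 or higher. Of the rows, 9408 were tested. Some arrays stood apart: C57Bl/6J angiotensin II array 1 lay more than 0.5 log2 units from the mean of the others of its group in 19.8% of tested rows, C57Bl/6N sham 1 in 9.19% and C57Bl/6N angiotensin II 4 in 7.31%. Among the 38 endothelial genes these shares were 12, 4 and 5 genes. C57Bl/6J angiotensin II 3 stood apart in 7 members but in 4.08% of all rows. Arrays are numbered within a group as the samples are listed, so equal numbers do not mark pairs.

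Most rows that define endothelium had signal. Detection on at least 3 arrays was itself the rule for members, so this does not test the label of the group. PECAM1 (CD31), CDH5 (VE-cadherin), TEK and TIE1 (the angiopoietin receptor and its partner), ESAM, CLDN5 and VWF were above background on 14 of 14 arrays. KDR, the main receptor for vascular endothelial growth factor, and ERG, an ETS transcription factor of the endothelium, were above background on 0 of 14 arrays, with deposited signals of 74.1 to 101 for KDR and 54.4 to 73 for ERG. Each of these signals lay under the lowest signal of a detected row on its own array, which was 84.2 or higher. CAV2, a caveolin, had signals of 242 to 489, above that level on 14 of 14 arrays, while its detection p-values stayed above 0.05. Its row was taken to combine several probes, as were those of ROBO4, EGFL7, ERG, EPAS1 and EDNRB, because their detection p-values lie off the steps that those of most rows share; no table states it.

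Promoters of the adhesion genes that had a window are shown, with that of the identity gene EMCN beside them. These 4 were chosen after the motif matches and the genes' values had been seen. RefSeq promoter windows of assembly GRCm38.p6 run from 250 bases before to 50 bases from each gene's start, and 21 of the 38 members had one. Capitals mark matches, on either strand, to GGAAGT, a form bound by ETS factors, to GGANTTTCC, a core bound by NF-kappaB, and to TATAAA, the TATA box. Icam1 lies on chromosome 9 (chr9:21015690-21015989), Sele and Selp on chromosome 1 (chr1:164047984-164048283 and chr1:164115014-164115313) and Emcn on chromosome 3 (chr3:137340828-137341127), all on the plus strand.
Icam1: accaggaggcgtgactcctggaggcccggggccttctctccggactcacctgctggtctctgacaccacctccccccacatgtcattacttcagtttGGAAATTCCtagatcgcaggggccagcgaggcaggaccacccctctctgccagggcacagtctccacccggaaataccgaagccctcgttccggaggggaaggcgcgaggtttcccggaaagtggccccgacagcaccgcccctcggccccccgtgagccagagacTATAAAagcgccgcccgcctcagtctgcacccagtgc
Sele: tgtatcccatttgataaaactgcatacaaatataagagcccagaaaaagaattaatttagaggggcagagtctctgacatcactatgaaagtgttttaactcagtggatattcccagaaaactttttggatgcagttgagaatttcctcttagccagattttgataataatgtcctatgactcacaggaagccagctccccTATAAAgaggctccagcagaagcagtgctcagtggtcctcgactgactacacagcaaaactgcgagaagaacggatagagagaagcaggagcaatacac
Selp: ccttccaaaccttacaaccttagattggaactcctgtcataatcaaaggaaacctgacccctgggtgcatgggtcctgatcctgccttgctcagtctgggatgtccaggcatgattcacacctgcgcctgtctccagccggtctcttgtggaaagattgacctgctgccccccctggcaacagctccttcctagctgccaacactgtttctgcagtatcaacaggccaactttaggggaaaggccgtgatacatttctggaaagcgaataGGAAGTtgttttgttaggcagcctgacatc
Emcn: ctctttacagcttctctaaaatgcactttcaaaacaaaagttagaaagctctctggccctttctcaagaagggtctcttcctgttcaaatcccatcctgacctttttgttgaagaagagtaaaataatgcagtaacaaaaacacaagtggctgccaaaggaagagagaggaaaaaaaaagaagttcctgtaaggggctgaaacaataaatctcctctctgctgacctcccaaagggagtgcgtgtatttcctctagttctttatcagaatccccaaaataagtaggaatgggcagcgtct
The Icam1 window holds the NF-kappaB core on the minus strand, beginning 153 bases before the start. It also holds the letters TATAAA at base 14 of the gene, after the start. Sele has a TATA box beginning 49 bases before the start. Selp has GGAAGT on the plus strand at base 21 of the gene, and the Emcn window holds none of the 3 motifs. Over all members with a window, GGAAGT was in 5 of 21, against 24.1% of 27025 promoters in the table. The NF-kappaB core was in 1 of 21, against 1.23% of all promoters, and the TATA box in 5 of 21, against 14.2%. No motif overlapped another in the 4 windows. These are letter matches, not measured binding sites.

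Few endothelial genes were called under angiotensin II, and in C57Bl/6N their shares in both directions were close to those of all rows. In C57Bl/6N ventricles, 3 of the 38 were higher (SELP, PLVAP and STAB1) and 3 lower (SOX18, AQP1 and EMCN) at an adjusted p under 0.05, which is the call used throughout. Over all 9408 rows in C57Bl/6N, 9.45% were higher and 7.92% lower. In C57Bl/6J ventricles 0 of 38 were higher and 1 was lower, the apelin receptor APLNR, where 0.999% of all rows were higher and 0.372% lower. SELP passed the detection filter mainly through treated arrays, so its place in these counts supports nothing. At an unadjusted p under 0.05 there were 11 members in C57Bl/6N and 9 in C57Bl/6J, against 31.4% and 15.3% of all rows. Averaged over both substrains, SELP, PLVAP and STAB1 were higher and APLNR, AQP1 and EMCN lower, against 8.32% and 7.48% of all rows. In C57Bl/6N and in the average, these shares of members are close to those of all rows.

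**Figure D1:**
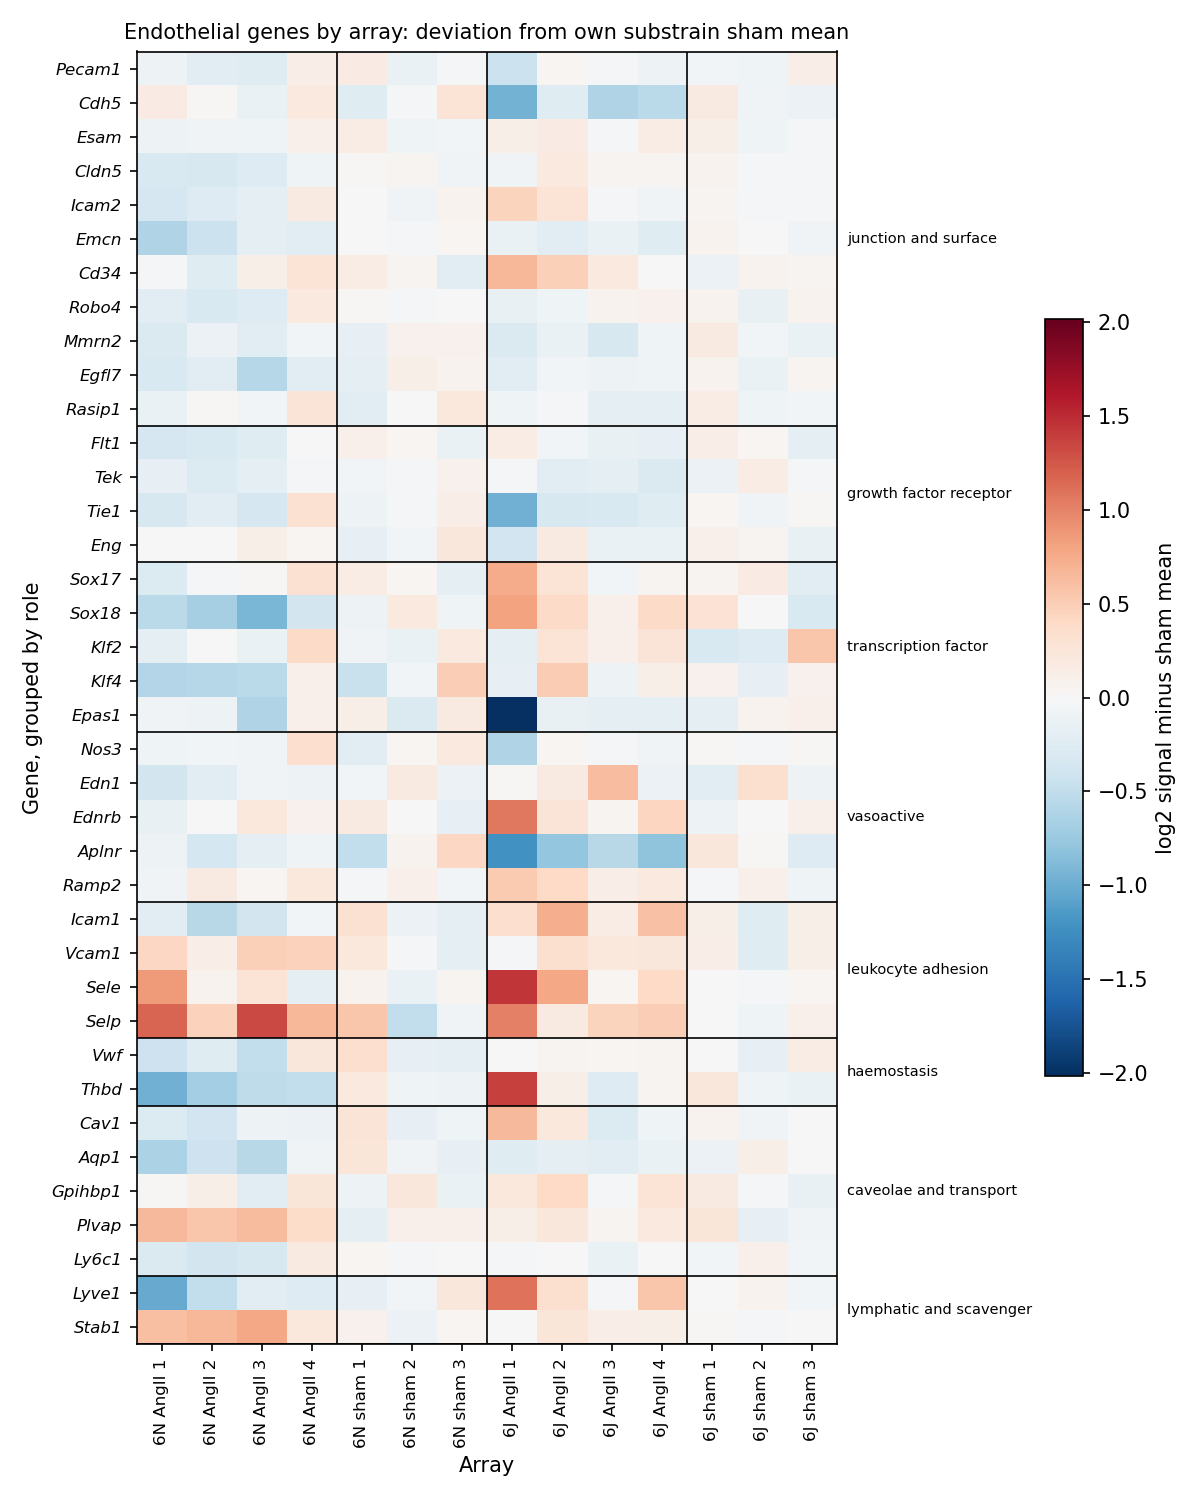
Deviation of each of the 38 endothelial genes (rows, grouped by role) from the mean of its own substrain's sham arrays, in log2 units, on each of 14 arrays (columns). SELP, SELE and VCAM1 are mostly red under angiotensin II, and SELP and SELE passed the detection filter through treated arrays. ICAM1, of the same block, lies below its sham mean on every treated C57Bl/6N array and above it on every treated C57Bl/6J array. Most junction genes are pale blue on C57Bl/6N angiotensin II 1, 2 and 3 but not on 4. Many of the darkest cells are on C57Bl/6J angiotensin II 1.

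The identity genes had a median log2 change of -0.16 in C57Bl/6N (11 of 32 positive) and 0.01 in C57Bl/6J (16 of 32 positive). The medians of all tested rows were -0.04 and -0.01. By array, the identity median, as a deviation from the 6-sham mean, was -0.258, -0.254, -0.238 and 0.114 on C57Bl/6N angiotensin II 1 to 4, against 0.007, -0.025 and 0.036 on the C57Bl/6N sham arrays. It was -0.038, 0.087, -0.110 and -0.027 on the C57Bl/6J angiotensin II arrays, against 0.049, -0.015 and -0.038 on the C57Bl/6J sham arrays. Treated C57Bl/6N arrays 1, 2 and 3 thus lay below all other arrays, and array 4 lay above them all.

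Markers of other ventricular cells are given for the same arrays. Of 17 cardiomyocyte markers 16 were tested, with a median change of -0.21 in C57Bl/6N (0 higher, 2 lower) and 0.0042 in C57Bl/6J, close to the identity genes' medians. Their median deviation from the 6-sham mean was -0.242, -0.110, -0.324 and -0.042 on C57Bl/6N angiotensin II 1 to 4, so array 4 was again the highest of the 4. Their summed levels were 328518 to 357269 on C57Bl/6N angiotensin II arrays, against 356096 to 378678 on C57Bl/6N sham arrays. They were 349658 to 365230 on C57Bl/6J angiotensin II arrays, against 344658 to 361103 on C57Bl/6J sham arrays. Every cardiomyocyte marker was above background on some array.

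Of 15 fibroblast markers 13 were tested, with a median change of 0.26 in C57Bl/6N (6 higher, 2 lower) and 0.11 in C57Bl/6J (2 higher). Their median deviation from the 6-sham mean was 0.159, 0.167, 0.214 and 0.176 on C57Bl/6N angiotensin II 1 to 4, so array 4 did not stand apart. Their summed levels were 20428 to 23554 on C57Bl/6N angiotensin II arrays, against 17602 to 20447 on C57Bl/6N sham arrays. They were 19992 to 22848 on C57Bl/6J angiotensin II arrays, against 18704 to 19351 on C57Bl/6J sham arrays, and Ddr2 was not above background on any array. The macrophage and monocyte markers given with STAB1 had medians of 0.78 and 0.09 in C57Bl/6N and C57Bl/6J. The lower identity median in C57Bl/6N was not tested against these lists, and the part of other cells in it was not tested.

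The 6 activation genes had a median log2 change of 0.31 in C57Bl/6N (4 of 6 positive) and 0.32 in C57Bl/6J (6 of 6 positive). With genes that no sham array measured set at their lower bound, the medians were 0.19 and 0.16. SELE in C57Bl/6N had no such bound and was set at no change. SELE and SELP passed the detection filter through treated arrays: SELE was detected on 4 arrays, all treated, and SELP on 8, of which 7 were treated, so these medians are a description and support no contrast with the identity genes. On the same scale, the activation median was 0.506, 0.148, 0.419 and 0.246 on the C57Bl/6N angiotensin II arrays, against 0.190, 0.011 and 0.094 on C57Bl/6N sham arrays. It was 0.156, 0.301, 0.156 and 0.272 on the C57Bl/6J angiotensin II arrays, against -0.077, -0.183 and -0.072 on the C57Bl/6J sham arrays. The C57Bl/6J groups did not overlap, and in C57Bl/6N the second treated array lay below sham 1.

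**Figure D2:**
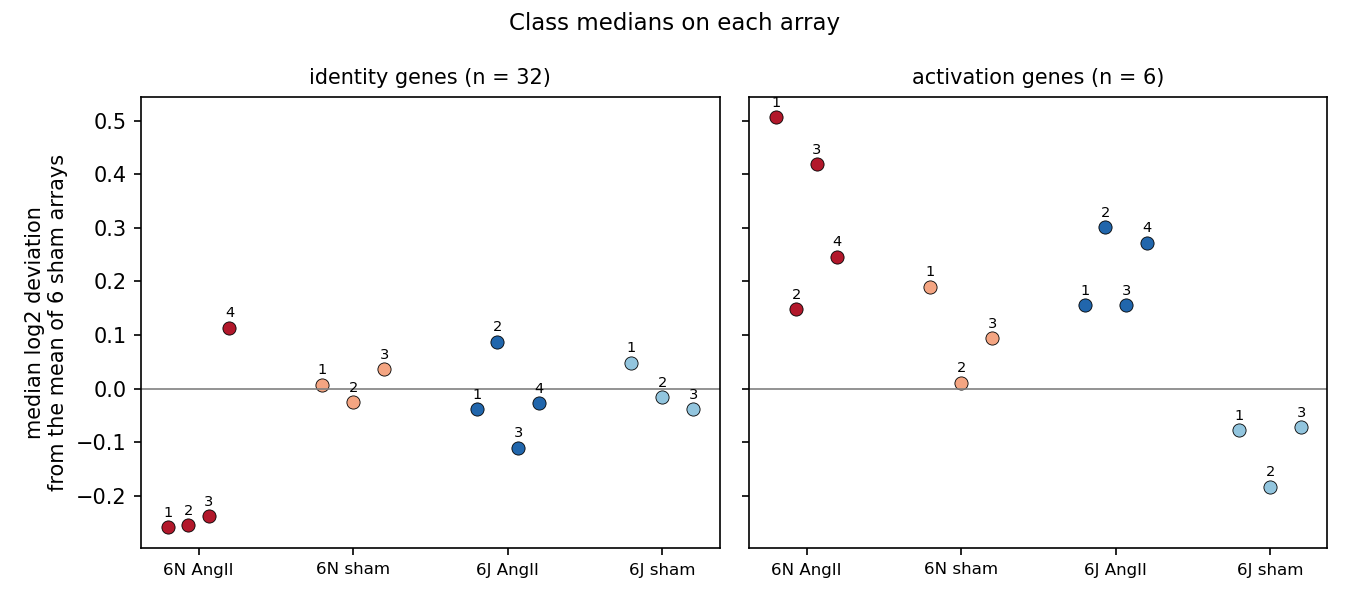
Median over 32 identity genes (left) and 6 activation genes (right) of the log2 deviation from the mean of the 6 sham arrays, 1 numbered point per array. The identity medians of C57Bl/6N angiotensin II 1, 2 and 3 lie at -0.258 to -0.238 and that of array 4 at 0.114. The activation medians of all 8 treated arrays lie above 0, and so do those of the C57Bl/6N sham arrays (0.190, 0.011 and 0.094). Of the activation genes, SELE and SELP passed the detection filter through treated arrays.

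The leukocyte adhesion genes differed among themselves. SELP encodes P-selectin, stored in endothelial granules and in platelets, which starts leukocyte rolling. Log2 signals of 6.61, 5.91, 6.78 and 6.10 stood on the C57Bl/6N angiotensin II arrays, against 6.00, 4.95 and 5.37 on the C57Bl/6N sham arrays. It was 6.12, 5.28, 5.56 and 5.59 on the C57Bl/6J angiotensin II arrays, against 5.09, 5.01 and 5.21 on the C57Bl/6J sham arrays. All treated arrays except C57Bl/6N 2 lay above all sham arrays of their substrain, and the gene was above background on 4 of 4, 1 of 3, 3 of 4 and 0 of 3 arrays of these groups. In C57Bl/6N SELP was called higher, with a fitted log2 change of 0.91 ± 0.25 SE (adjusted p = 0.0218) whose size is uncertain because 1 of 3 sham arrays measured the gene. In C57Bl/6J SELP missed the threshold (adjusted p = 0.325), and the lower bound on its fold was 1.09, with 3 of 4 treated arrays above background. Averaged over the substrains it was called higher (adjusted p = 0.0128), with no size given because no C57Bl/6J sham array measured it, and this call was lost with background inferred from all rows (adjusted p = 0.0526). The C57Bl/6N call was lost without angiotensin II 1 (0.82, adjusted p = 0.0661) or 3 (0.77, 0.0729) or sham 2 (0.66, 0.115) or 3 (0.87, 0.0552), with background inferred from all rows (0.10, 0.0575), and without a filter on dim rows (0.91, 0.0544).

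Platelet markers are given beside SELP because platelets carry its product. Of 10 markers 5 were tested, with summed levels of 168 to 403 on C57Bl/6N angiotensin II arrays, against 273 to 636 on C57Bl/6N sham arrays. The range was 296 to 1021 on C57Bl/6J angiotensin II arrays, against 200 to 285 on C57Bl/6J sham arrays. The 5 markers had a median change of -0.27 in C57Bl/6N and 0.61 in C57Bl/6J, and 0 of them were called in either substrain. Clec1b was not above background on any array, and the part of platelets in the SELP result was not tested.

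SELE, or E-selectin, is made by activated endothelium and slows rolling leukocytes. On the log2 scale it stood at 6.08, 5.30, 5.51 and 5.04 on C57Bl/6N angiotensin II arrays, against 5.30, 5.09 and 5.29 on the C57Bl/6N sham arrays. It was 6.38, 5.73, 4.98 and 5.34 on the C57Bl/6J angiotensin II arrays, against 4.94, 4.91 and 4.98 on the C57Bl/6J sham arrays. The gene was above background on 2 of 4 treated arrays in each substrain and on 0 of 6 sham arrays, and its highest value was on C57Bl/6J array 1, which stood apart. No fold can be given in C57Bl/6N (adjusted p = 0.561). In C57Bl/6J SELE was not called (adjusted p = 0.252). The lower bound on its fold there was 1.06 and rests on treated values of which 2 of 4 were above background. The averaged response missed the threshold (adjusted p = 0.116), passing it without C57Bl/6J angiotensin II 3 (0.0419).

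VCAM1 binds integrin alpha-4 beta-1 of monocytes and lymphocytes and lets them adhere firmly. Its log2 signal was 8.84, 8.57, 8.90 and 8.89 on C57Bl/6N angiotensin II arrays, against 8.64, 8.40 and 8.23 on C57Bl/6N sham arrays. It was 8.53, 8.87, 8.76 and 8.78 on C57Bl/6J angiotensin II arrays, against 8.69, 8.30 and 8.66 on C57Bl/6J sham arrays. Groups overlapped in each substrain, by 1 treated array. Its averaged change of 0.28 ± 0.09 missed the threshold (adjusted p = 0.0572). With C57Bl/6J angiotensin II 1 left out it was 0.31 (adjusted p = 0.0262), without C57Bl/6N angiotensin II 2 0.32 (0.0367), and without C57Bl/6N sham 1 0.33 (0.0339).

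ICAM1, the ligand of the leukocyte integrin LFA-1, had opposite signs in the substrains. Log2 signals of 8.54, 8.21, 8.41 and 8.72 stood on the C57Bl/6N angiotensin II arrays, against 9.09, 8.66 and 8.58 on C57Bl/6N sham arrays. It was 8.85, 9.23, 8.66 and 9.11 on C57Bl/6J angiotensin II arrays, against 8.63, 8.26 and 8.63 on C57Bl/6J sham arrays. In C57Bl/6J every treated array lay above every sham array, while the C57Bl/6N groups overlapped. The changes were -0.31 ± 0.17 in C57Bl/6N (adjusted p = 0.231) and 0.45 ± 0.17 in C57Bl/6J (adjusted p = 0.216), neither past the threshold. Their difference was -0.76 (95% interval -1.26 to -0.25, adjusted p = 0.165).

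PLVAP forms the diaphragms of fenestrae and caveolae and marks permeable or growing vessels, being low in the resting capillaries of the heart. On the log2 scale it stood at 8.29, 8.20, 8.27 and 8.01 on C57Bl/6N angiotensin II arrays, against 7.44, 7.74 and 7.74 on C57Bl/6N sham arrays. It was 7.74, 7.85, 7.67 and 7.81 on C57Bl/6J angiotensin II arrays, against 7.86, 7.45 and 7.55 on C57Bl/6J sham arrays. Every treated C57Bl/6N array lay above the arrays of the other 3 groups, and the C57Bl/6J groups overlapped. PLVAP rose in C57Bl/6N by 0.55 ± 0.12 (1.47-fold, adjusted p = 0.00584). Its C57Bl/6J change was 0.15 ± 0.12 (adjusted p = 0.584), and the averaged response was 0.35 ± 0.08 (adjusted p = 0.0109). With background inferred from all rows, the C57Bl/6N change was 0.26 and still called (adjusted p = 0.00679).

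Between treated ventricles, PLVAP was higher in C57Bl/6N than in C57Bl/6J by 0.43 ± 0.11 (1.34-fold, adjusted p = 0.0266). With background inferred from all rows the difference was 0.21 (adjusted p = 0.0255) and the averaged response 0.15 (adjusted p = 0.0111), both still called. The call between treated ventricles was lost when any of 5 treated arrays was left out: C57Bl/6N 1 (0.39, adjusted p = 0.0974), 2 (0.42, 0.0621) or 3 (0.40, 0.0905), or C57Bl/6J 3 (0.39, 0.0617) or 4 (0.44, 0.055). The difference between the substrains' responses was 0.41 (95% interval 0.05 to 0.76) and missed the threshold (adjusted p = 0.237).

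Among the vasoactive genes, EDN1 encodes the precursor of endothelin-1, a strong constrictor peptide. Its log2 signal was 7.75, 7.90, 8.04 and 8.02 on C57Bl/6N angiotensin II arrays, against 8.06, 8.29 and 7.99 on C57Bl/6N sham arrays. It was 7.71, 7.87, 8.31 and 7.58 on C57Bl/6J angiotensin II arrays, against 7.48, 8.01 and 7.59 on C57Bl/6J sham arrays. Groups overlapped in both substrains, and the changes of -0.19 ± 0.17 in C57Bl/6N (adjusted p = 0.474) and 0.18 ± 0.17 in C57Bl/6J (adjusted p = 0.641) missed the threshold. The averaged change was -0.01 (95% interval -0.25 to 0.24).

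APLNR is the receptor for apelin, a peptide that relaxes vessels and strengthens contraction and whose signalling opposes that of angiotensin II. Log2 signals of 9.15, 8.91, 9.07 and 9.18 stood on the C57Bl/6N angiotensin II arrays, against 8.76, 9.33 and 9.68 on C57Bl/6N sham arrays. It was 8.47, 8.91, 9.13 and 8.88 on C57Bl/6J angiotensin II arrays, against 9.91, 9.71 and 9.42 on C57Bl/6J sham arrays. In C57Bl/6J every treated array lay below every sham array, while the treated C57Bl/6N arrays lay within the spread of their 3 shams. APLNR fell in C57Bl/6J by 0.84 ± 0.19 in log2 units, to 0.559 of the sham level (adjusted p = 0.0485). The C57Bl/6N change was -0.18 ± 0.19 (adjusted p = 0.57), and the averaged fall was -0.51 ± 0.14 (adjusted p = 0.0206).

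The C57Bl/6J call of APLNR lay just inside the threshold and was lost in 13 of 25 alternatives. Without C57Bl/6J angiotensin II 1, the array that stood apart, the change was -0.71 (adjusted p = 0.0909), and without C57Bl/6J sham 1 it was -0.73 (adjusted p = 0.208). The call was also lost on leaving out C57Bl/6J angiotensin II 2 or 4, C57Bl/6J sham 2 or 3, C57Bl/6N angiotensin II 1, 2 or 3, or C57Bl/6N sham 2, with changes of -0.97 to -0.82 and adjusted p of 0.0607 to 0.174. The averaged call was lost without C57Bl/6J sham 1 (-0.45, adjusted p = 0.057) or sham 2 (-0.50, 0.0511). Responses differed between substrains by 0.66 (95% interval 0.07 to 1.24, adjusted p = 0.24). APLN, which encodes apelin itself, was not above background on any array.

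The other vasoactive members were not called. RAMP2, the partner of the adrenomedullin receptor, had every treated C57Bl/6J array above every sham array, with changes of 0.09 ± 0.11 in C57Bl/6N and 0.32 ± 0.11 in C57Bl/6J (adjusted p = 0.619 and 0.185). EDNRB, the endothelial endothelin receptor, changed by 0.04 ± 0.18 in C57Bl/6N and 0.45 ± 0.18 in C57Bl/6J (adjusted p = 0.919 and 0.254). On C57Bl/6J angiotensin II 1, which stood apart, EDNRB was at 9.06. The other treated C57Bl/6J arrays were at 8.04 to 8.44, against 7.89 to 8.10 in C57Bl/6J shams. NOS3, endothelial nitric oxide synthase, changed by 0.03 ± 0.16 in C57Bl/6N and -0.17 ± 0.16 in C57Bl/6J.

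**Figure D3:**
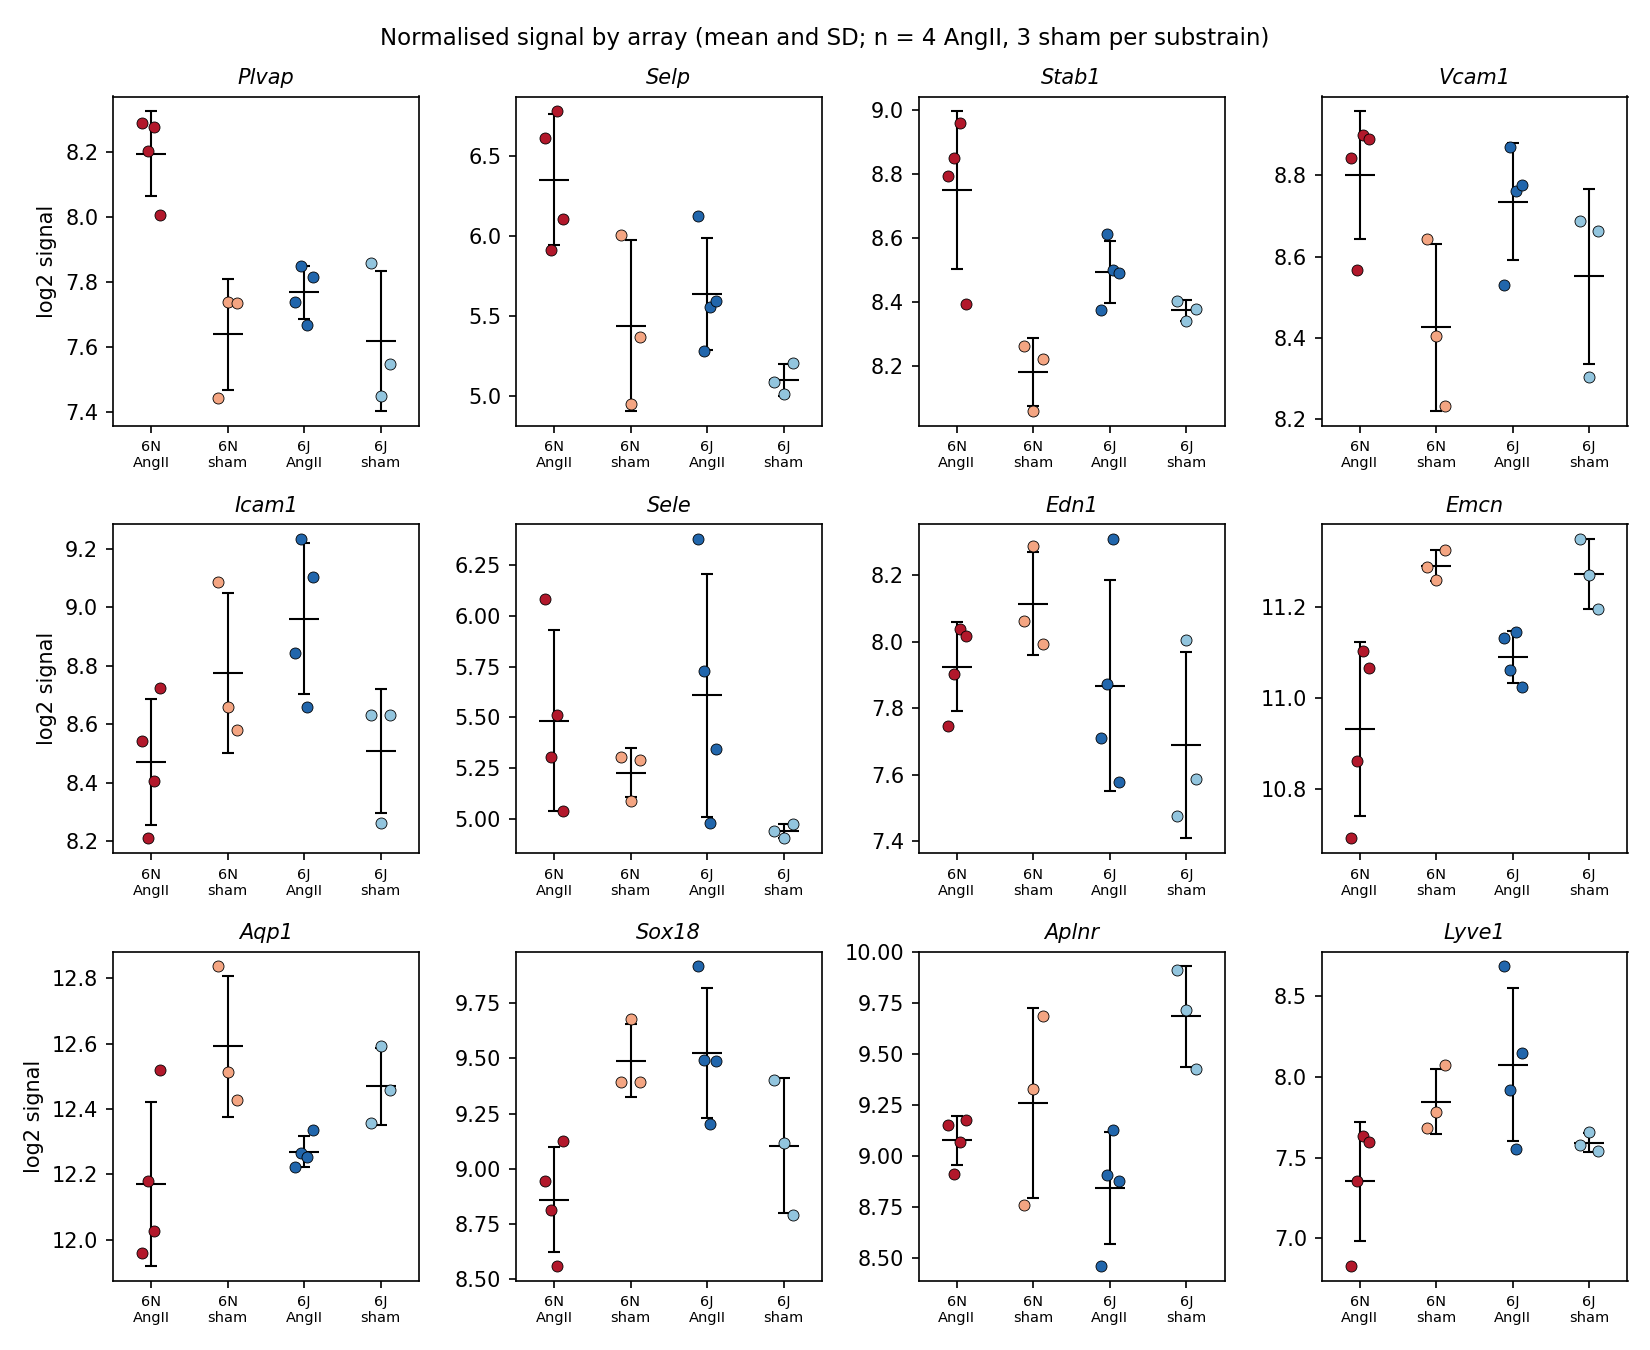
Normalised log2 signal of 12 endothelial genes on each array, with the group mean and SD (4 angiotensin II and 3 sham arrays per substrain). PLVAP and STAB1 are highest in treated C57Bl/6N, EMCN and SOX18 are lowest there, APLNR is low in treated C57Bl/6J, and ICAM1 and LYVE1 go opposite ways in the substrains without a called response.

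Of the 11 junction and surface genes, 1 was called in any comparison of the fit reported. EMCN, endomucin, is a sialomucin that covers capillary and venous endothelium and hinders leukocyte adhesion. On the log2 scale it stood at 10.69, 10.86, 11.10 and 11.07 on C57Bl/6N angiotensin II arrays, against 11.29, 11.26 and 11.33 on C57Bl/6N sham arrays. It was 11.13, 11.06, 11.15 and 11.02 on C57Bl/6J angiotensin II arrays, against 11.35, 11.27 and 11.20 on C57Bl/6J sham arrays. All 8 treated arrays lay below all 6 sham arrays. EMCN fell in C57Bl/6N by 0.36 ± 0.10 in log2 units, to 0.778 of the sham level (adjusted p = 0.0247), and averaged over substrains by 0.27 ± 0.07 (adjusted p = 0.0194). The C57Bl/6J change of -0.18 ± 0.10 missed the threshold (adjusted p = 0.415).

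The C57Bl/6N call of EMCN was lost without angiotensin II 1 (-0.28, adjusted p = 0.0806) or 2 (-0.34, 0.0636) or without sham 1 (-0.36, 0.0642), 2 (-0.38, 0.0566) or 3 (-0.34, 0.0614). The averaged call was lost without C57Bl/6J sham 1 (-0.25, adjusted p = 0.0514).

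The other 10 junction and surface genes missed the threshold in each contrast of the fit reported. CDH5, the cadherin of endothelial junctions, had log2 signals of 8.52, 9.22, 8.87 and 8.93 on C57Bl/6J angiotensin II arrays, against 9.66, 9.41 and 9.36 on C57Bl/6J sham arrays. Those groups did not overlap. The change was 0.07 ± 0.16 in C57Bl/6N (adjusted p = 0.822) and -0.59 ± 0.16 in C57Bl/6J (adjusted p = 0.0842). PECAM1 changed by -0.10 ± 0.13 in C57Bl/6N and -0.13 ± 0.13 in C57Bl/6J, with adjusted p of 0.644 and 0.685.

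EGFL7, a secreted protein of the endothelial matrix, and CLDN5, a tight junction claudin, had every treated C57Bl/6N array below every C57Bl/6N sham array, with changes of -0.34 ± 0.11 (adjusted p = 0.0517) and -0.24 ± 0.09 (adjusted p = 0.0847). Their C57Bl/6J changes were -0.12 ± 0.11 and 0.06 ± 0.09. The EGFL7 fall in C57Bl/6N was called in some alternatives, such as no background correction (-0.33, adjusted p = 0.035). It was not called with median scaling or without a filter on dim rows. Between treated ventricles CLDN5 differed, C57Bl/6N minus C57Bl/6J, by -0.28 ± 0.09 (adjusted p = 0.0509). That difference was called without background correction (adjusted p = 0.034) but not with median scaling. ESAM, an adhesion protein of tight junctions, and ICAM2, a resting ligand of LFA-1, had averaged changes of 0.03 ± 0.07 and 0.01 ± 0.10.

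None of the 4 growth factor receptors was called. TIE1 had every treated C57Bl/6J array below every sham array (-0.46 ± 0.18, adjusted p = 0.236), and its lowest value, 8.21, was on array 1. TEK changed by -0.17 ± 0.10 in C57Bl/6N and -0.19 ± 0.10 in C57Bl/6J, the most alike values of the receptors (averaged change -0.18 ± 0.07, adjusted p = 0.0942). FLT1, a receptor that binds vascular endothelial growth factor and limits its action, changed by -0.22 ± 0.12 in C57Bl/6N and -0.05 ± 0.12 in C57Bl/6J. ENG, a TGF-beta coreceptor, had an averaged change of -0.04 ± 0.09.

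Of 5 transcription factors, SOX18 was called. It belongs to the SRY-related factors that direct vessel and lymphatic development. Its log2 signal was 8.94, 8.81, 8.56 and 9.12 on C57Bl/6N angiotensin II arrays, against 9.39, 9.68 and 9.39 on C57Bl/6N sham arrays. It was 9.92, 9.49, 9.20 and 9.49 on C57Bl/6J angiotensin II arrays, against 9.40, 9.12 and 8.79 on C57Bl/6J sham arrays. All treated C57Bl/6N arrays lay below their shams, and the C57Bl/6J groups overlapped in the other direction. SOX18 fell in C57Bl/6N by 0.63 ± 0.18 in log2 units, to 0.647 of the sham level (adjusted p = 0.0246), against a change of 0.42 ± 0.18 in C57Bl/6J (adjusted p = 0.269).

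Between treated ventricles SOX18 was lower in C57Bl/6N than in C57Bl/6J, by -0.66 ± 0.16 (adjusted p = 0.0232). Its responses differed by -1.05 (95% interval -1.59 to -0.51), which did not pass over all rows (adjusted p = 0.129). Without C57Bl/6N angiotensin II 4 that difference was -1.14 and passed (adjusted p = 0.025). The C57Bl/6N fall was no longer called without angiotensin II 2 (-0.61, adjusted p = 0.0553) or 3 (-0.53, 0.0821) or without sham 1 (-0.68, 0.0544) or 2 (-0.53, 0.105). The difference between treated groups was lost without C57Bl/6N angiotensin II 1 (-0.69, adjusted p = 0.0652), 2 (-0.65, 0.0568) or 3 (-0.56, 0.0894) or C57Bl/6J angiotensin II 4 (-0.68, 0.0527).

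SOX17, of the same subfamily, changed by 0.00 ± 0.18 in C57Bl/6N and 0.26 ± 0.18 in C57Bl/6J. KLF2 and KLF4, factors that blood flow raises in endothelium, changed by 0.02 ± 0.20 and -0.40 ± 0.22 in C57Bl/6N and by 0.11 ± 0.20 and 0.09 ± 0.22 in C57Bl/6J. EPAS1, the hypoxia-inducible factor HIF-2alpha, had its C57Bl/6J change of -0.63 ± 0.35 set by array 1, at 7.44. The other 3 treated C57Bl/6J arrays were at 9.27 to 9.31, against 9.28 to 9.56 in C57Bl/6J shams. None of these was called.

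Among genes of caveolae and transport, AQP1, the water channel of capillary endothelium and red cells, had log2 signals of 11.96, 12.18, 12.03 and 12.52 on C57Bl/6N angiotensin II arrays, against 12.84, 12.51 and 12.43 on C57Bl/6N sham arrays. It was 12.22, 12.27, 12.25 and 12.33 on C57Bl/6J angiotensin II arrays, against 12.36, 12.59 and 12.46 on C57Bl/6J sham arrays. The C57Bl/6J groups did not overlap, and in C57Bl/6N array 4 reached the sham range. AQP1 fell in C57Bl/6N by 0.42 ± 0.13 in log2 units, to 0.747 of the sham level (adjusted p = 0.0403), and averaged over substrains by 0.31 ± 0.09 (adjusted p = 0.0355). The C57Bl/6J change of -0.20 ± 0.13 was not called (adjusted p = 0.497).

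The C57Bl/6N call of AQP1 ended without C57Bl/6N sham 1, at -0.30 (adjusted p = 0.191), and without any of 8 other arrays, where it was -0.46 to -0.35 (adjusted p of 0.0515 to 0.125). These were C57Bl/6N angiotensin II 1, 2 and 3, C57Bl/6N sham 2, C57Bl/6J angiotensin II 2, 3 and 4, and C57Bl/6J sham 3. The averaged call ended without C57Bl/6N sham 1 or 2, C57Bl/6N angiotensin II 1, 2 or 3, C57Bl/6J angiotensin II 2 or 3, or C57Bl/6J sham 2 or 3, at -0.33 to -0.25 (adjusted p of 0.0503 to 0.0968). Summed erythrocyte markers, 6 of 9 tested, were 41377 to 49266 on C57Bl/6N angiotensin II arrays, against 40012 to 43785 on C57Bl/6N sham arrays. They were 43399 to 48262 on C57Bl/6J angiotensin II arrays, against 45664 to 49643 on C57Bl/6J sham arrays. Of those 6 markers, 0 were called in either substrain and 2 were higher in the average, and their part in the AQP1 result was not tested.

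The remaining members of this role and those of haemostasis were not called. CAV1, which shapes caveolae, GPIHBP1, which carries lipoprotein lipase to the capillary lumen, and LY6C1, a surface marker of mouse capillaries, had averaged changes of -0.05 ± 0.12, 0.13 ± 0.10 and -0.12 ± 0.08. THBD, thrombomodulin, which turns thrombin into an anticoagulant, changed by -0.67 ± 0.28 in C57Bl/6N (adjusted p = 0.115) and 0.32 ± 0.28 in C57Bl/6J (adjusted p = 0.623). Its treated C57Bl/6N arrays, at 7.62 to 8.09, lay below their shams at 8.50 to 8.79, while 1 value of 9.62, on array 1, stood above the other treated C57Bl/6J arrays. Without C57Bl/6J angiotensin II 1 the C57Bl/6N fall of THBD was called (-0.67 ± 0.14, adjusted p = 0.00439). It was also called with each substrain fitted alone (adjusted p = 0.016) and with array weights (0.00972), but not in the other alternatives. VWF, which tethers platelets to injured vessel walls, changed by -0.23 ± 0.16 in C57Bl/6N and 0.04 ± 0.16 in C57Bl/6J.

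**Figure D4:**
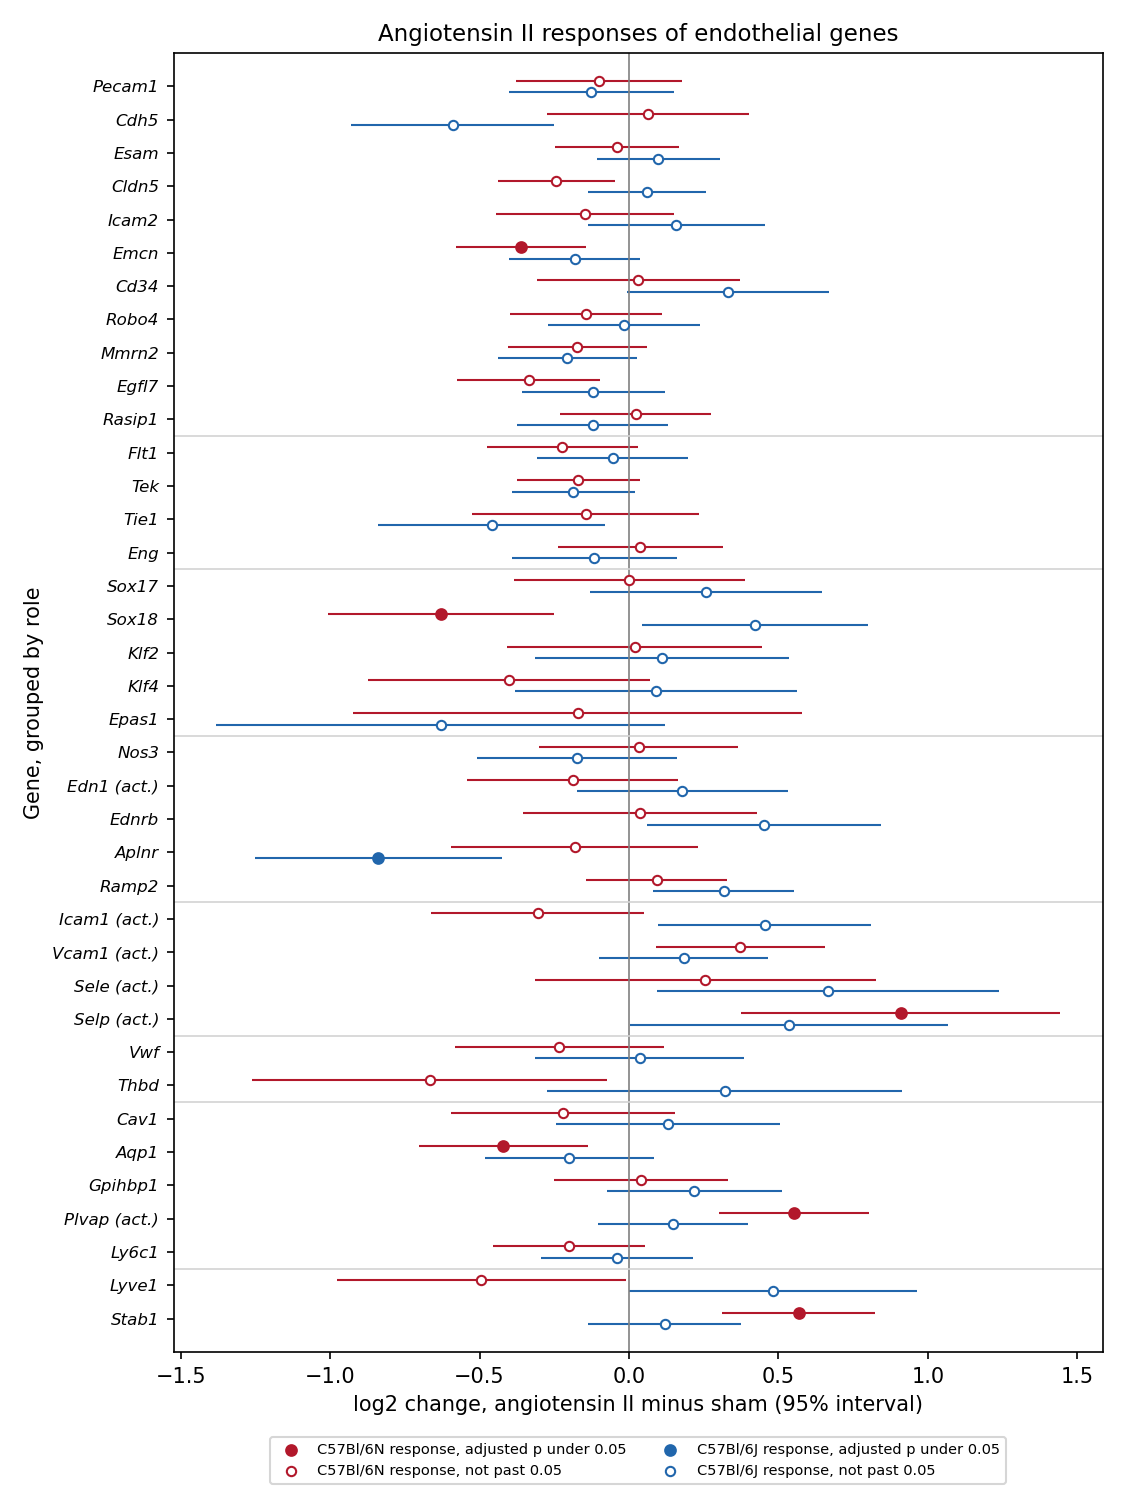
Angiotensin II minus sham change of each endothelial gene in C57Bl/6N (red, upper) and C57Bl/6J (blue, lower), in log2 units with 95% intervals; filled points have an adjusted p under 0.05 and activation genes are marked act. The points of SELE in both substrains and of SELP in C57Bl/6J are fitted against sham groups that were not above background, so their sizes are not measured, and SELP in C57Bl/6N against 3 sham arrays of which 1 measured it. In C57Bl/6N 6 points and in C57Bl/6J 1 point are filled.

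STAB1, stabilin-1, is a scavenger receptor of sinusoidal and lymphatic endothelium that macrophages of the alternative type also express. Log2 signals of 8.80, 8.85, 8.96 and 8.40 stood on the C57Bl/6N angiotensin II arrays, against 8.26, 8.06 and 8.22 on C57Bl/6N sham arrays. It was 8.37, 8.61, 8.50 and 8.49 on C57Bl/6J angiotensin II arrays, against 8.40, 8.34 and 8.38 on C57Bl/6J sham arrays. Every treated C57Bl/6N array lay above its shams, array 4 by the least, and in C57Bl/6J 1 treated array lay within the sham range. STAB1 rose in C57Bl/6N by 0.57 ± 0.12 (1.48-fold, adjusted p = 0.00571), and averaged over substrains by 0.34 ± 0.08 (adjusted p = 0.0133, and 0.0687 with median scaling). The C57Bl/6J change was 0.12 ± 0.12 (adjusted p = 0.675). Its responses differed by 0.45 (95% interval 0.09 to 0.81, adjusted p = 0.215), which passed without C57Bl/6N angiotensin II 4 (0.57, adjusted p = 0.0291).

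Macrophage and monocyte markers moved with STAB1. Of 20, 17 were tested and 14 were higher in C57Bl/6N. Their summed levels on C57Bl/6N angiotensin II arrays 1 to 4 were 41038, 30002, 39802 and 21714, against 14830 to 18680 on C57Bl/6N sham arrays. They were 18930 to 20894 on C57Bl/6J angiotensin II arrays, against 16560 to 19929 on C57Bl/6J sham arrays. Array 4 was the lowest of the treated C57Bl/6N arrays in STAB1 and in these markers. Itgam and Ptprc were not above background on any array, and the part of macrophages in the STAB1 result was not tested.

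LYVE1, a hyaluronan receptor of lymphatic endothelium and of some resident macrophages, had log2 signals of 6.83, 7.36, 7.63 and 7.59 on C57Bl/6N angiotensin II arrays, against 7.68, 7.79 and 8.07 on C57Bl/6N sham arrays. It was 8.68, 7.92, 7.55 and 8.15 on C57Bl/6J angiotensin II arrays, against 7.58, 7.66 and 7.54 on C57Bl/6J sham arrays. Treated C57Bl/6N arrays all lay below their shams, and 3 of 4 treated C57Bl/6J arrays lay above theirs. Neither response was called, at -0.49 ± 0.23 in C57Bl/6N (adjusted p = 0.15) and 0.48 ± 0.23 in C57Bl/6J (adjusted p = 0.328). Between treated ventricles LYVE1 was lower in C57Bl/6N than in C57Bl/6J by -0.72 ± 0.21 (adjusted p = 0.0439). Without C57Bl/6J angiotensin II 1, which held the highest value, this was -0.52 (adjusted p = 0.0915).

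The LYVE1 call also ended on leaving out C57Bl/6N angiotensin II 1 (-0.55, adjusted p = 0.156), 2 or 3, C57Bl/6N sham 2, C57Bl/6J angiotensin II 2 or 4 or any C57Bl/6J sham, with adjusted p of 0.0566 to 0.0962 for those without a value here. It ended too with background inferred from all rows (-0.31, adjusted p = 0.106), median scaling (-0.62, 0.0881) and no filter on dim rows (-0.72, 0.0953), so it was lost in 13 of 24 alternatives. The other lymphatic markers, 4 tested of 8, held summed levels of 1317 to 1647 on C57Bl/6N angiotensin II arrays, against 1615 to 1895 on C57Bl/6N sham arrays. They were 1317 to 1498 on C57Bl/6J angiotensin II arrays, against 1606 to 1719 on C57Bl/6J sham arrays. Of these 4, 2 were lower in C57Bl/6N and 0 in C57Bl/6J. Their part, and that of macrophages, in the LYVE1 result was not tested.

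Groups of arrays that did not overlap were counted for all members. In C57Bl/6N, every angiotensin II array was above every sham array for 2 of 38 members and below for 6, against 12.6% and 15.5% of all rows. In C57Bl/6J this held for 4 and 5 members, against 7.94% and 9.19% of all rows. The 2 in C57Bl/6N were PLVAP and STAB1, and the 6 were CLDN5, EMCN, EGFL7, SOX18, THBD and LYVE1. In C57Bl/6J the genes above were SELP, SELE, ICAM1 and RAMP2, and those below were CDH5, TIE1, APLNR, EMCN and AQP1. SELP and SELE passed the detection filter through treated arrays and were above background on 0 C57Bl/6J sham arrays, so their place in this count supports nothing. For SELE the lowest treated value was 4.983, against 4.977 on the highest sham array.

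Compared directly between substrains, sham ventricles showed 0 called members by limma (3 at an unadjusted p under 0.05, against 7.62% of all rows, and smallest adjusted p 0.527), where 0.0213% of all rows, 2 genes, were called. Under angiotensin II, 1 member was higher in C57Bl/6N than in C57Bl/6J (PLVAP) and 2 lower (SOX18 and LYVE1), against 5.45% and 3.78% of all rows. The responses themselves differed for 0 members by limma (9 at an unadjusted p under 0.05, against 17.5% of all rows), with 0.0106% of all rows, 1 gene, called. These comparisons share arrays with the responses above. Summed atrial markers, 7 of 9 tested, were 5425 to 7648 on C57Bl/6N angiotensin II arrays, against 12519 to 13784 on C57Bl/6J angiotensin II arrays. On sham arrays they were 3171 to 12662 in C57Bl/6N and 7084 to 11871 in C57Bl/6J. Bmp10 was not above background on any array, and the part of atrial tissue in the differences between treated ventricles was not tested.

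Beyond the members, 61 of 77 listed genes of endothelial signalling were tested, from ligands through receptors to transcription factors. In C57Bl/6N, 5 were higher and 7 lower, against 9.45% and 7.92% of all rows, and in C57Bl/6J 2 were higher and 0 lower, against 0.999% and 0.372%. The C57Bl/6N shares are close to those of all rows. The list's median change was -0.17 in C57Bl/6N and -0.08 in C57Bl/6J, against -0.04 and -0.01 over all rows. Ptgis, which makes prostacyclin, rose in both, by 0.81 ± 0.14 in C57Bl/6N (adjusted p = 0.00196) and 0.66 ± 0.14 in C57Bl/6J (adjusted p = 0.0337). Sphk1, which makes sphingosine 1-phosphate, rose by 0.77 ± 0.13 in C57Bl/6N (adjusted p = 0.00134) and 0.74 ± 0.13 in C57Bl/6J (adjusted p = 0.0108). The signal of S1PR1, an endothelial receptor for that lipid, was 48.6 to 63.5 and not above background.

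In C57Bl/6N the called ligands went both ways. Vegfd, a lymphatic growth factor, rose by 1.04 ± 0.29 (adjusted p = 0.022), against a change of -0.51 ± 0.29 in C57Bl/6J (adjusted p = 0.414). In C57Bl/6J its log2 signal was 5.63 on angiotensin II 1, which stood apart, and 7.05, 6.99 and 6.75 on the other treated arrays. The C57Bl/6J shams were at 7.41, 6.93 and 7.01. Vegfa, the main vascular growth factor and largely made by muscle cells in the heart, fell by 0.59 ± 0.14 log2 units (adjusted p = 0.0104), against 0.15 ± 0.14 in C57Bl/6J (adjusted p = 0.648). Selplg, the leukocyte ligand of P-selectin, rose by 1.20 ± 0.27 in C57Bl/6N (adjusted p = 0.00764) and changed by 0.02 ± 0.27 in C57Bl/6J. Selplg is a leukocyte gene and was listed as the partner of SELP.

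Hey1, a target of Notch signalling in arterial endothelium, fell in C57Bl/6N by 0.67 ± 0.12 log2 units (adjusted p = 0.00192), against 0.10 ± 0.12 in C57Bl/6J (adjusted p = 0.715). On the log2 scale it stood at 8.36, 8.60, 8.31 and 8.68 on C57Bl/6N angiotensin II arrays, against 9.26, 9.10 and 9.10 on C57Bl/6N sham arrays, with no overlap. Sox7, the third member of the subfamily of SOX17 and SOX18, fell by 0.68 ± 0.19 log2 units (adjusted p = 0.023), and Efna1, an ephrin, by 0.50 ± 0.14 (adjusted p = 0.027). The remaining called genes were Hif1a, higher, and Ets2, Jam2 and Adgrl4, lower.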

How the data were processed

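The authors deposited, per the file headers, a signal intensity and a detection p-value for each gene row on each array, neither background-subtracted nor normalised, judging from array medians of 80.8 to 112. Their value table equals a quantile normalisation of these intensities. The array model and scanner software are not given in the labels or file headers. Intensities were background-corrected by a normal-exponential model (background from the detection p-values of 14215 rows that behave as 1 probe), offset by 16, quantile-normalised and put on the log2 scale with limma 3.58.1 in R 4.3.3. The 9408 rows tested were those detected (p-value under 0.05) on 3 arrays or more. One limma model with 4 group means was fitted to 14 arrays, with Benjamini-Hochberg adjustment over all tested rows, and was tested on simulated data. A row was above background on an array if no dimmer than the faintest detected 1-probe row there. If no sham array was, the fold is a lower bound, the treated mean over the higher of that faintest signal and the row's own. It bounds the sham side only, since treated values that were not above background enter as they stand. Every member called in a contrast, or of the activation class, is given with every array value. Alternatives changed the background, offset, scaling, filter, variance prior and array weights, fitted substrains alone, or left out each array. The members and lists were chosen with earlier results of these data known. Sums over marker lists are of normalised linear signal of tested rows. The number of arrays limits every comparison, and the dose conflict those with angiotensin II.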

Additional observations from a re-analysis of the deposited data

Results flagged for a closer look

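Among 80 groups of 4 treated arrays tested with Dixon's gap criterion at the 95% level, 8 held an array far from the others; chance flags about 1 in 20 groups. All 8 were on 2 arrays. On C57Bl/6N angiotensin II 4, TIE1 was at 9.12 log2 units against 8.46 to 8.57 on the other 3 arrays, KLF4 at 8.16 against 7.48 to 7.51, NOS3 at 9.52 against 9.09 to 9.12 and LY6C1 at 12.3 against 11.8. The identity class median there was 0.114, against -0.258 to -0.238 on the other 3. On C57Bl/6J angiotensin II 1, TIE1 was at 8.21 against 8.84 to 8.93, EPAS1 at 7.44 against 9.27 to 9.31, and NOS3 at 8.75 against 9.29 to 9.40. None of these 5 genes was called in any comparison.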

How the results depend on the processing

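The rises of PLVAP and STAB1 in C57Bl/6N kept direction and call in 25 of 25 alternatives. Other calls were lost in some, and the cause was not tested: APLNR in C57Bl/6J in 13 of 25, AQP1 in C57Bl/6N in 12, EMCN in 7, SOX18 in 5, SELP in 6 of 24, and LYVE1 between treated substrains in 13 of 24; none reversed. Beside the arrays left out, losses came without a filter on dim rows (APLNR, AQP1, LYVE1, SELP and SOX18), with median scaling (AQP1, EMCN and LYVE1), with each substrain fitted alone (APLNR, AQP1 and EMCN) and with background inferred from all rows (APLNR, LYVE1 and SELP). SOX18's call between treated substrains was also lost with median scaling or no filter, and AQP1's averaged call with no filter. The number of members called in C57Bl/6J, 1 in the fit reported, was 0 with background inferred from all rows, without a filter on dim rows or with each substrain fitted alone, 2 with median scaling (CDH5 and APLNR) and 3 with array weights (CDH5, APLNR and ICAM1). In C57Bl/6N, 6 became 3 without the filter, where 8.42% of all rows were called, and 12 with array weights, where 28.3% were. Averaged over substrains, 6 became 13 with array weights, against 27.8% of all rows. In C57Bl/6J array weights called 5.94% of all rows. For the difference of responses, 0 became 4 with array weights (CLDN5, SOX18, ICAM1 and STAB1), against 6.05% of all rows. These weights gave C57Bl/6J angiotensin II 1 0.171, C57Bl/6N sham 1 0.328 and C57Bl/6N angiotensin II 4 0.515. Between treated substrains, 3 became 1 with median scaling and 9 with array weights, against 8.15% and 23.8% of all rows.

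With 1 array left out, the counts were 0 to 1 in C57Bl/6J, 2 to 9 in C57Bl/6N, 0 to 2 for the difference of responses and 0 to 9 between treated substrains. The C57Bl/6J count was 0 without C57Bl/6J angiotensin II 1 or 4, any C57Bl/6J sham, C57Bl/6N angiotensin II 1, 2 or 3, or C57Bl/6N sham 2. The C57Bl/6N count was 3 without angiotensin II 1 or 3, and 2 without sham 2. Between treated substrains it was 9 without C57Bl/6N angiotensin II 4 (15.7% of all rows), 6 without C57Bl/6N sham 1, and 0 without C57Bl/6N angiotensin II 1, 2 or 3 or C57Bl/6J angiotensin II 4. The difference of responses was called for 2 members, SOX18 and STAB1, without C57Bl/6N angiotensin II 4, against 4.39% of all rows. EDN1's averaged change ranged from -0.0786 to 0.0740 and changed sign in 5 of 14.

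The activation median in C57Bl/6J, 0.319, was 0.0702 with background inferred from all rows, 0.238 without background correction and in the deposited value table, 0.235 with an offset of 50, 0.236 with median scaling and 0.181 over rows detected on all arrays. In C57Bl/6N, 0.315 became 0.0603 with background inferred from all rows and 0.0921 over rows detected on all arrays. Rows detected on all arrays leave out SELE and SELP, so the medians over them, in both substrains, cover ICAM1, VCAM1, EDN1 and PLVAP only. VCAM1's averaged change passed in 7 of 24 alternatives. A filter on signal in place of the detection p-value, chosen after seeing the data, added CAV2, with changes of -0.33 ± 0.16 in C57Bl/6N (adjusted p = 0.174) and -0.03 ± 0.16 in C57Bl/6J (adjusted p = 0.947). No paired analysis was possible because the labels carry no replicate numbers. SELE and SELP lay near background, where the signal limits every change.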
